A study of Mus musculus with 9 samples.

Results

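The cyclins of the mitotic and meiotic cell cycle and their kinase Cdk1 were followed in whole testes of 3-week-old mice carrying a knock-in allele of Piwil4. The set was 10 genes of the 22337 in the table, taken by gene symbol: the A-type cyclins Ccna1 and Ccna2, the B-type cyclins Ccnb1 and Ccnb2, the D-type cyclins Ccnd1, Ccnd2 and Ccnd3, the E-type cyclins Ccne1 and Ccne2, and Cdk1. All 10 were found, each in 1 row, and all 10 passed the filter on low counts in every comparison. RNA sequencing covered 3 wild-type testes (WT/WT), 3 testes heterozygous for the allele (WT/R264W) and 3 homozygous for it (R264W/R264W). R264W puts a tryptophan in place of an arginine in PIWIL4, which silences transposons in the male germ line. The allele was made with CRISPR-Cas9 in C57BL/6 zygotes and is present in every cell, so knock-in testes hold mutant germ cells and mutant somatic cells alike. No label says whether replicates of a genotype were littermates, or that they came from different mice. Nor do the labels say whether a library held 1 testis or a pool. Each library is called a testis here, and p-values measure the spread between these libraries only.

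Cyclins bind and switch on cyclin-dependent kinases, and each type works in its own part of the cycle. D-type cyclins with Cdk4 or Cdk6 act in G1 on the retinoblastoma proteins, E-type cyclins with Cdk2 start DNA replication, A-type cyclins act in S phase and G2, and B-type cyclins with Cdk1 drive the entry into division. In the testis the same machinery serves the mitotic divisions of spermatogonia, the replication before meiosis and the meiotic divisions of spermatocytes, and Ccna1 is the germ cell form of cyclin A, needed in the mouse for spermatocytes to leave meiotic prophase.

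The amount of spermatid RNA, used here as a sign of how far the first wave of spermatogenesis had come, differed between testes of one genotype. It was measured by a spermatid score, the mean log2 CPM (read counts scaled for the size of the library) of 19 genes of round and later spermatids, none of them a cyclin. In ascending order the score was 0.81 in WT/R264W replicate 3, 1.36 in WT/WT replicate 3, 2.38 in R264W/R264W replicate 1, 2.53 in WT/WT replicate 2, 3.47 in WT/R264W replicate 2, 3.62 in R264W/R264W replicate 2, 4.86 in WT/R264W replicate 1, 5.66 in R264W/R264W replicate 3 and 5.84 in WT/WT replicate 1. Each genotype therefore held a low, a middle and a high testis, the scores formed no separate groups (the largest step between neighbours was 1.25 of a range of 5.03), and the score was used only as a number. Libraries held 17.96 to 24.3 M estimated counts, and 3 counts, the upper limit when a gene is at 0, made 0.124 to 0.167 CPM (counting error only). Piwil4 itself had 18 to 46 counts per testis, and a missense allele cannot be checked by this level. The summed CPM of the Sertoli, Leydig and early meiotic marker lists also varied among testes (1761 to 2657, 201.8 to 484.4 and 2925 to 3836). Epididymal markers summed to 44.4 CPM in R264W/R264W replicate 1 and to 0.0483 to 5.68 CPM in the other testes, and their part in the results was not tested. In bulk testis, fewer cells of a type and less RNA per cell cannot be told apart.

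Promoters are shown for the members that were higher with the spermatid score and for Cdk1, the partner of the B-type cyclins. They come from RefSeq (GRCm38.p6), run from 250 bases before to 50 bases after a start site, and are written on the gene's strand. Capitals mark CCAAT (or ATTGG, its complement on the other strand) and TTTGAA or TTTAAA, the letters of the cell cycle homology region, in promoters a usual neighbour of CCAAT boxes in genes of G2 and mitosis. Ccna1 (minus strand, chr3:55055006-55055305), Ccnb1 (minus strand, chr13:100786437-100786736), Ccnb2 (minus strand, chr9:70421505-70421804), Cdk1 (minus strand, chr10:69352863-69353162) and both Ccnd3 starts (plus strand, chr17:47504801-47505100 and chr17:47593217-47593516) read as follows.
Ccna1: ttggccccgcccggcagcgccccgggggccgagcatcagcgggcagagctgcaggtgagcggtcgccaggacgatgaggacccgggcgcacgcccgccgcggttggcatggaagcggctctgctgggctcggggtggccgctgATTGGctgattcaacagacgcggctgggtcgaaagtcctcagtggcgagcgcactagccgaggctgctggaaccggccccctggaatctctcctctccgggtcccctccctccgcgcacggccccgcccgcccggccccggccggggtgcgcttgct
Ccnb1: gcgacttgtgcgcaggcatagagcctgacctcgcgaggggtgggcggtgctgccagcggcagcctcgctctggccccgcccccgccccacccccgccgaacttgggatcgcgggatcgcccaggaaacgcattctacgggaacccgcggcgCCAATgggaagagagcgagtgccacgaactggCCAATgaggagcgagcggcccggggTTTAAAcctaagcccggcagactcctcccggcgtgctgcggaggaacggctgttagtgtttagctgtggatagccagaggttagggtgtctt
Ccnb2: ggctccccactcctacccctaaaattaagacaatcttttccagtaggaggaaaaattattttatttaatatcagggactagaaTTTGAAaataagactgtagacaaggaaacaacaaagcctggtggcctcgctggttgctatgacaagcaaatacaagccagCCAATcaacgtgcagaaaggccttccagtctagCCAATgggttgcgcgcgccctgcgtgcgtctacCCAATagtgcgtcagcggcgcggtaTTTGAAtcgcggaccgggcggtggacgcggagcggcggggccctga
Cdk1: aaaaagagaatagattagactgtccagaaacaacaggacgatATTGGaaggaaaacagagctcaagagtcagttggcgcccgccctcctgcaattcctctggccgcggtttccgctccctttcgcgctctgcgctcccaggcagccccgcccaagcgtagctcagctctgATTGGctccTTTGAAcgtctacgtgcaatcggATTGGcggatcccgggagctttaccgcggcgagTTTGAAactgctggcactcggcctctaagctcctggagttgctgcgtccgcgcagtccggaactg
Ccnd3 upstream start: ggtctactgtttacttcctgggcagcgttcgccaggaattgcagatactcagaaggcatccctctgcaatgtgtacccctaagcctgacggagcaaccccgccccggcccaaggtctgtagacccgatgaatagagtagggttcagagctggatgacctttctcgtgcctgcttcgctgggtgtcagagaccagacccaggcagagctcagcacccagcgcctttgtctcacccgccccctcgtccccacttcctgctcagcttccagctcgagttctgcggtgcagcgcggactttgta
Ccnd3 downstream start: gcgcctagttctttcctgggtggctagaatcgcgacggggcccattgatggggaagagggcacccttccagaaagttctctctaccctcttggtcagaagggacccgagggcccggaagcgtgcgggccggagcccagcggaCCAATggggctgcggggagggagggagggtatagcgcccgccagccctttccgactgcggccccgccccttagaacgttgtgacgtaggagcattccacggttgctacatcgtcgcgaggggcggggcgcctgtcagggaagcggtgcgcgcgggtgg

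Both strands were searched. Ccnb1 held 2 CCAAT and 1 TTTAAA, Ccnb2 held 3 CCAAT and 2 TTTGAA, and Cdk1 also held 3 CCAAT and 2 TTTGAA. Ccna1 held 1 CCAAT, at -107 from its start, and neither TTTGAA nor TTTAAA. The upstream Ccnd3 start held none of the 3 motifs and the downstream start held 1 CCAAT, at -108. Ccne1, whose window is not printed, held 1 TTTAAA at -15 and no CCAAT. Among all 32851 RefSeq promoters of this length, 37.4% held CCAAT, 17.9% TTTGAA, 13.2% TTTAAA, and 10.7% held CCAAT together with TTTGAA or TTTAAA. Of the other motifs searched, GGCGC stood in every one of these windows and in 36.9% of all promoters, TTCCCGC in none of them and in 4.6%, CNGTTA in Ccnb1 alone of them and in 23.3%, and AACNGNC in Ccna1, Ccnb1 and Cdk1 and in 32.8%. CNGTTA and AACNGNC are MYB-like, GGCGC and TTCCCGC E2F-like, and matches of different motifs may overlap. Ccna2, Ccnd1, Ccnd2 and Ccne2 had no entry in the table used.

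Levels between genes were compared as FPKM, which divides by transcript length. The mean over the 9 testes was 104 FPKM ± 17.7 (SD, n = 9) for Ccna1 and 95.1 ± 7.33 for Ccnb2, then 48.1 ± 5.70 for Ccnb1, 46.8 ± 3.98 for Cdk1, 31.6 ± 5.18 for Ccne2 and 24.4 ± 9.75 for Ccnd3. Far lower stood Ccna2 with 9.18 ± 1.5, Ccnd1 with 5.33 ± 0.891, Ccne1 with 5.03 ± 0.301 and Ccnd2 with 4.05 ± 0.868 FPKM. Among neighbours in this order, only Ccnb2 over Ccnb1 and Ccnd3 over Ccna2 had ranges that did not overlap. Ccna1 exceeded Ccnb2 in 6 of 9 testes, Ccnb1 exceeded Cdk1 in 4 of 9 and Ccnd1 exceeded Ccne1 in 4 of 9, so these pairs had no fixed order. Cdk1 was above Ccne2, and Ccna2 above Ccnd1, in 9 of 9 testes. The 10 genes together made 327.1 to 412.4 FPKM per testis, of which the B-type cyclins held 37.2% to 39.0%.

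**Figure D1:**
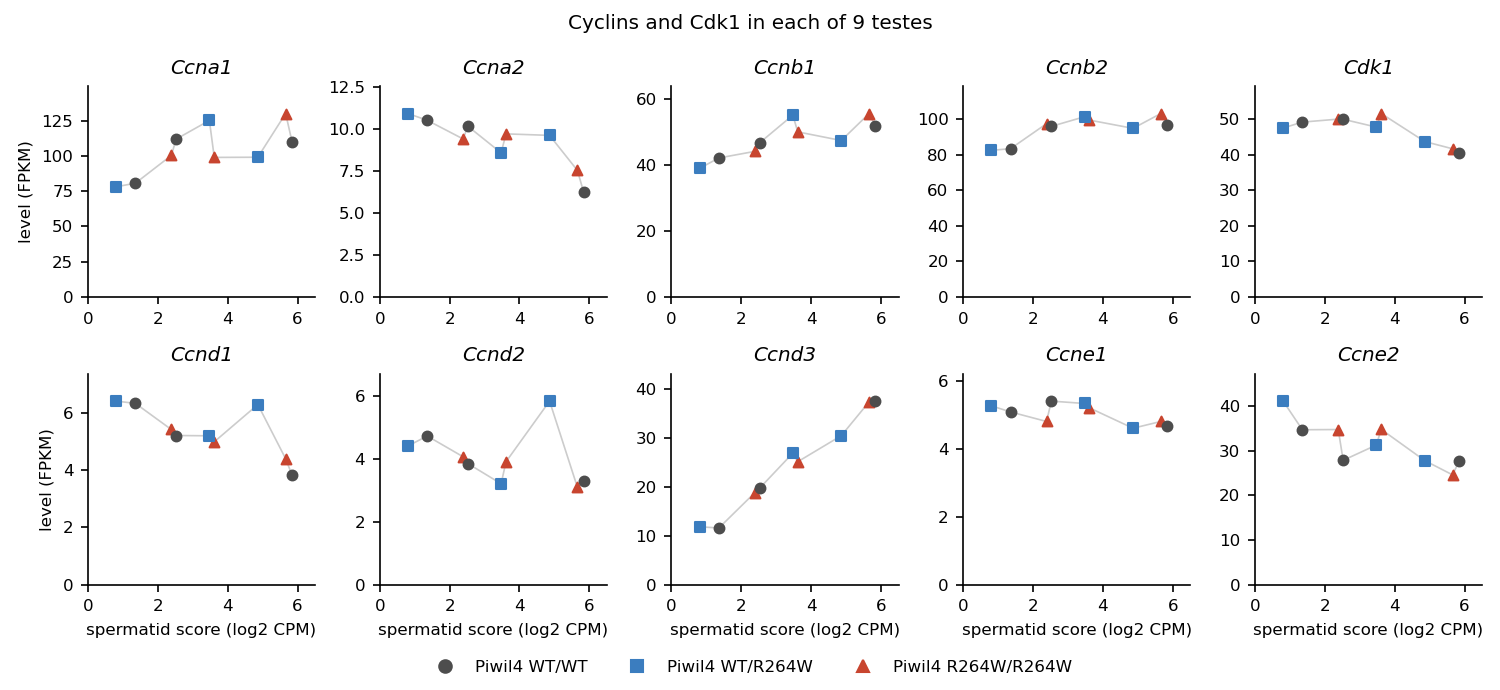
Level of each member in FPKM (vertical axes, each from 0) against the spermatid score of the testis (mean log2 CPM, horizontal axes), with 1 point for each of 9 testes, marked by Piwil4 genotype and joined in score order by a grey line. Ccnd3 climbed from 11.8 FPKM at the lowest score to 37.5 FPKM at the highest, while Ccne1 stayed between 4.61 and 5.41 FPKM.

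Of the 10 members, 4 were higher and 2 were lower with the spermatid score at an adjusted p under 0.05 (edgeR quasi-likelihood test of the slope over 9 testes, with genotype as a term). Among all 15771 genes tested, 17.6% were higher and 8.53% were lower by the same test, a split of 67.4% higher among the called genes. That split depended on the scale: it was 45.1% higher with limma on log2(FPKM + 1), where 3 members were called in each direction, and 98.4% higher when libraries were scaled to Sertoli genes, where 4 members were called higher and 0 lower. Only 1 member, Ccnd3, was called without the 2 testes farthest from the median score (WT/R264W replicate 3 and WT/WT replicate 1), and 2 to 8 members were called when 1 testis was left out. A slope is a change in log2 CPM per unit of the score.

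Ccnd3 had the steepest slope of the set. It measured 37.5, 19.7 and 11.6 FPKM in WT/WT replicates 1 to 3, 30.5, 26.9 and 11.8 FPKM in the WT/R264W testes and 18.8, 25.1 and 37.4 FPKM in the R264W/R264W testes. The 2 testes with the lowest scores were the lowest, the 2 with the highest scores were the highest, and the genotypes overlapped throughout. Its slope was 0.36 ± 0.0267 (SE; edgeR adjusted p = 2.1e-07), or 3.55-fold over the range of the score, at percentile 93.2 of all slopes. Within each genotype the 3 testes rose in the order of the score, by 1.77 on the log2 scale in WT/WT, 1.37 in WT/R264W and 1.12 in R264W/R264W. For the other called members the order was mixed in some genotypes. It was mixed for Ccna1, Ccnb1, Ccnb2 and Ccna2 in WT/R264W, for Ccna2 and Ccne2 in R264W/R264W and for Ccne2 in WT/WT. The Ccnd3 slope was called under each of the 20 alternatives, from 0.33 to 0.42. Bysl, which overlaps the 3' end of Ccnd3 on the opposite strand, measured 17.0 to 19.3 FPKM over the same 9 testes.

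The other D-type cyclins did not pass the test. Ccnd1 measured 3.82, 5.20 and 6.32 FPKM in WT/WT replicates 1 to 3, 6.28, 5.19 and 6.40 in WT/R264W and 5.41, 4.98 and 4.39 in R264W/R264W. Ccnd2, a D-type cyclin of spermatogonia and Sertoli cells, measured 3.30, 3.85 and 4.73 FPKM in WT/WT, 5.84, 3.21 and 4.41 in WT/R264W and 4.07, 3.91 and 3.10 in R264W/R264W. WT/R264W replicate 1 had the highest Ccnd2 of all testes and a Ccnd1 level like that of the 2 lowest-score testes. The Ccnd1 slope was -0.07 ± 0.0300 (adjusted p = 0.116) and the Ccnd2 slope -0.04 ± 0.0426 (adjusted p = 0.468), so neither passed. Without WT/R264W replicate 1 both passed, at -0.10 (adjusted p = 0.00965) for Ccnd1 and -0.12 (adjusted p = 0.00264) for Ccnd2. Ccnd1 also passed with all 9 testes on a score of pachytene genes (-0.08, adjusted p = 0.0405). WT/R264W replicate 1 also had the highest summed CPM of the 16 Sertoli markers, 2657 against 1761 to 2459 in the other testes. Its sum of peritubular myoid markers was the highest too, 362.4 against 219.2 to 340.1 CPM. The part of either in the Ccnd2 level was not tested. Ccnd3 made up 51.2% of the summed D-type FPKM in WT/WT replicate 3 and 84.1% in WT/WT replicate 1, the testes with the next to lowest and the highest score.

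Of the E-type pair, Ccne2 was lower with the score and Ccne1 did not pass. Ccne2, which male mice need for full meiotic progress, measured 27.6, 27.85 and 34.7 FPKM in WT/WT, 27.8, 31.3 and 41.1 in WT/R264W and 34.75, 34.8 and 24.6 in R264W/R264W. The testis with the lowest score was the highest and R264W/R264W replicate 3 the lowest. The slope was -0.08 ± 0.0251 (adjusted p = 0.0295), or 0.751-fold over the range of the score, but the call was lost without WT/WT replicate 3 (adjusted p = 0.0921), WT/R264W replicate 3 (0.147), R264W/R264W replicate 1 (0.0625) or R264W/R264W replicate 3 (0.124). It was also lost on a score of pachytene genes (-0.08, adjusted p = 0.0622) and with Sertoli scaling (-0.03, adjusted p = 0.737). Without WT/WT replicate 1 the slope was -0.13 (adjusted p = 0.0043). Ints8, on the opposite strand of its 3' end, also measured less at the highest score than at the lowest (16.3 against 24.9 FPKM), and its part in the Ccne2 values was not tested. Ccne1 varied least of all members, with 4.69, 5.41 and 5.09 FPKM in WT/WT, 4.61, 5.34 and 5.27 in WT/R264W and 4.81, 5.21 and 4.81 in R264W/R264W. Its slope was 0.00 in size with an SE of 0.0313 (adjusted p = 0.964).

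Cyclins A1 and A2 moved in opposite directions. Ccna1 measured 110.1, 112 and 80.6 FPKM in WT/WT replicates 1 to 3, 99.0, 125 and 78.1 in WT/R264W and 100.3, 98.9 and 130.0 in R264W/R264W. Its 2 lowest values stood in the 2 testes with the lowest scores, and its highest stood in R264W/R264W replicate 3 and in WT/R264W replicate 2, a testis of middle score. The slope was 0.13 ± 0.0323 (adjusted p = 0.00959), 1.59-fold over the range. Without WT/WT replicate 3, WT/R264W replicate 3 or R264W/R264W replicate 3 the adjusted p was 0.0527, 0.0861 or 0.0531, with slopes of 0.10 to 0.12.

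Ccna2, the cyclin A of mitotic cells, measured 6.22, 10.15 and 10.51 FPKM in WT/WT, 9.61, 8.57 and 10.9 in WT/R264W and 9.40, 9.70 and 7.53 in R264W/R264W. Its 2 lowest values were those of the 2 testes with the highest scores. The slope was -0.10 ± 0.0284 (adjusted p = 0.0172), 0.695-fold over the range and at percentile 8.3 of all slopes. This call was lost without WT/WT replicate 1 (adjusted p = 0.204), WT/WT replicate 3 (0.0795) or R264W/R264W replicate 3 (0.0575), and with libraries scaled to Sertoli genes (0.351). Exosc9, on the opposite strand of its 3' end, measured 25.6 to 34.4 FPKM. It was at 32.6 FPKM at the lowest score and 29.7 at the highest, and its part in the Ccna2 values was not tested.

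Both B-type cyclins were higher with the score. Ccnb1, the mitotic cyclin that embryos cannot do without, measured 51.9, 46.8 and 42.2 FPKM in WT/WT, 47.5, 55.2 and 39.1 in WT/R264W and 44.2, 50.1 and 55.7 in R264W/R264W. Its slope was 0.10 ± 0.0229 (adjusted p = 0.00816), 1.4-fold over the range, and was not called without WT/R264W replicate 3 (0.07, adjusted p = 0.0888). Ccnb2, a B-type cyclin that mice can lack, measured 97.0, 96.1 and 83.5 FPKM in WT/WT, 94.95, 101.5 and 82.6 in WT/R264W and 97.6, 99.6 and 103 in R264W/R264W. For both, the 2 testes with the lowest scores had the lowest values. The Ccnb2 slope was 0.07 ± 0.0189 (adjusted p = 0.0182), 1.27-fold over the range, and the call was lost without WT/WT replicate 1 (adjusted p = 0.0851), WT/WT replicate 3 (0.107), WT/R264W replicate 3 (0.149) or R264W/R264W replicate 3 (0.0577). With limma on log2(FPKM + 1) the Ccnb2 slope was 0.04 and not called (adjusted p = 0.0872).

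Cdk1, the kinase that the B-type cyclins activate, did not pass the test. It measured 40.3, 49.9 and 49.1 FPKM in WT/WT, 43.6, 47.7 and 47.45 in WT/R264W and 49.9, 51.5 and 41.6 in R264W/R264W. The 3 testes with the highest scores were the 3 lowest. Its slope of -0.04 ± 0.0206 did not pass (adjusted p = 0.146), though limma on log2(FPKM + 1) gave -0.06 with an adjusted p of 0.0384.

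**Figure D2:**
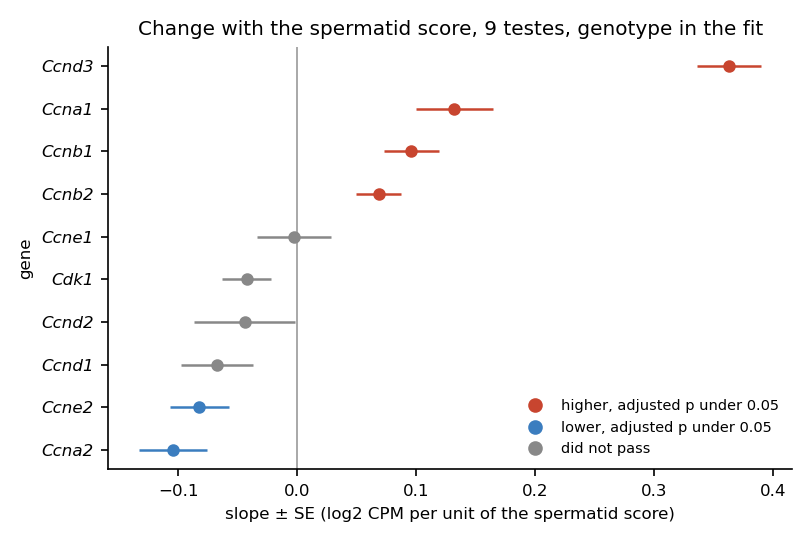
Slope of each member on the spermatid score in log2 CPM per unit of the score (horizontal axis), with bars for 1 SE, from the edgeR fit over 9 testes with genotype as a term. Ccnd3, Ccna1, Ccnb1 and Ccnb2 were called higher, Ccna2 and Ccne2 lower, and the other 4 did not pass.

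Ratios within a library do not depend on how libraries are scaled. In the order of the score given above, Ccna1 to Ccna2 was 7.16, 7.67, 10.7, 11, 14.6, 10.2, 10.3, 17.3 and 17.7, and Ccnd3 to Ccnd2 was 2.68, 2.45, 4.62, 5.12, 8.38, 6.43, 5.22, 12.1 and 11.4. Both ratios were lowest in the 2 testes with the lowest scores and highest in the 2 with the highest, with WT/R264W replicate 2 standing above its neighbours in the order. Ccnb1 to Ccnb2 stayed between 0.453 and 0.544, Ccne1 to Ccne2 between 0.128 and 0.196, and Ccnd2 to Ccnd1 between 0.618 and 0.930. Between R264W/R264W and WT/WT the mean log2 ratios differed by 0.11 for Ccna1 to Ccna2 (3.62 ± 0.421 against 3.52 ± 0.605, SD, n = 3 each), with an exact two-sided permutation p of 1.0. The other 4 differences were 0.44 for Ccnd3 to Ccnd2 and between -0.09 and -0.03 for the rest, with exact permutation p of 0.6 to 0.8, where 3 against 3 cannot go below 0.1.

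**Figure D3:**
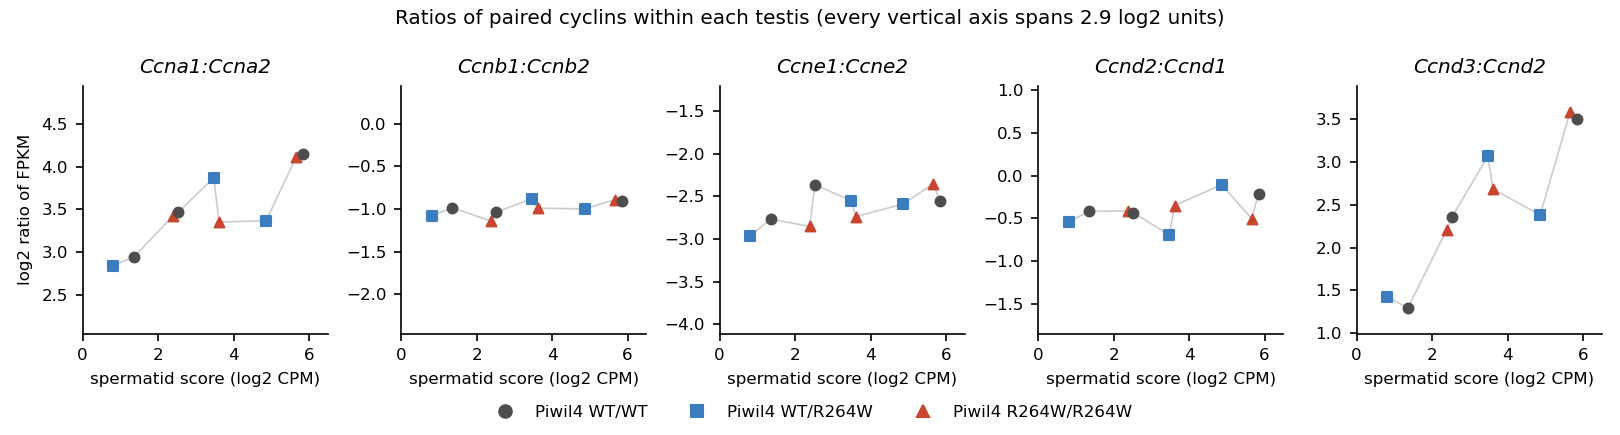
Log2 ratio of the FPKM of 2 cyclins within each testis (vertical axes, all of the same span) against the spermatid score (horizontal axes), with 1 point for each of 9 testes marked by genotype. The ratios of Ccna1 to Ccna2 and of Ccnd3 to Ccnd2 were lowest at the 2 lowest scores and highest at the 2 highest, while Ccnb1 to Ccnb2 stayed between 0.453 and 0.544.

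Between genotypes, which the study compared to ask what the R264W allele does to gene expression in the first wave, no member passed the test. For R264W/R264W against WT/WT, 0 of 10 members had an adjusted p under 0.05 (edgeR, 6 testes), 0 had an unadjusted p under 0.05, and in 0 did the genotypes fail to overlap. Over the 15543 genes tested these shares were 0%, 1.26% and 5.58%. The largest log2 fold change was that of Ccnd3, 0.25 ± 0.491 (SE), followed by Ccnb2 with 0.11 ± 0.108, Ccna1 with 0.11 ± 0.192 and Ccnb1 with 0.10 ± 0.133. Cdk1 was at 0.06 ± 0.109, Ccne2 at 0.05 ± 0.139, Ccnd2 at 0.01 ± 0.166, Ccna2 at -0.01 ± 0.198, Ccnd1 at -0.05 ± 0.168 and Ccne1 at -0.07 ± 0.119. The Ccnd3 value rested on single testes, being -0.07 without WT/WT replicate 3, -0.12 without R264W/R264W replicate 3 and 0.88 without WT/WT replicate 1. With the spermatid score as a covariate its SE shrank to 0.0820 and its fold change to 0.12.

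For R264W/R264W against WT/R264W, the same 3 counts were 0 of 10 members, against 0%, 2.22% and 7.06% of 15463 genes. The log2 fold changes ran from -0.26 ± 0.201 for Ccnd2 to 0.31 ± 0.413 for Ccnd3, with adjusted p of at least 0.948. The Ccnd2 value was -0.05 without WT/R264W replicate 1, -0.43 without WT/R264W replicate 2 and -0.06 with libraries scaled to Sertoli genes. WT/R264W against WT/WT also gave 0 of 10 by each count, against 0%, 1.11% and 5.36% of 15413 genes, with values from -0.10 ± 0.230 for Ccna1 to 0.28 ± 0.227 for Ccnd2. Here Ccnd2 was 0.07 without WT/R264W replicate 1, 0.46 without WT/R264W replicate 2 and 0.09 with Sertoli scaling. Scaling to Sertoli genes put the median log2 fold change of all genes at 0.19 and -0.20 in these 2 comparisons (0.01 and -0.02 with TMM), and no member was called under it. DESeq2 called 1 and 5 genes of the table in the comparisons of R264W/R264W with WT/WT and with WT/R264W and 0 in the third, none of them a member. No alternative called a member between genotypes, and without WT/R264W replicate 2 there were 2 members at an unadjusted p under 0.05 in R264W/R264W against WT/R264W. In the main edgeR fits, which leave out the score, the SE of Ccnd3 was 0.413 to 0.521. An SE of this size leaves moderate changes of Ccnd3 undetected at 3 testes a genotype. A p that misses the threshold does not show equal levels.

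**Figure D4:**
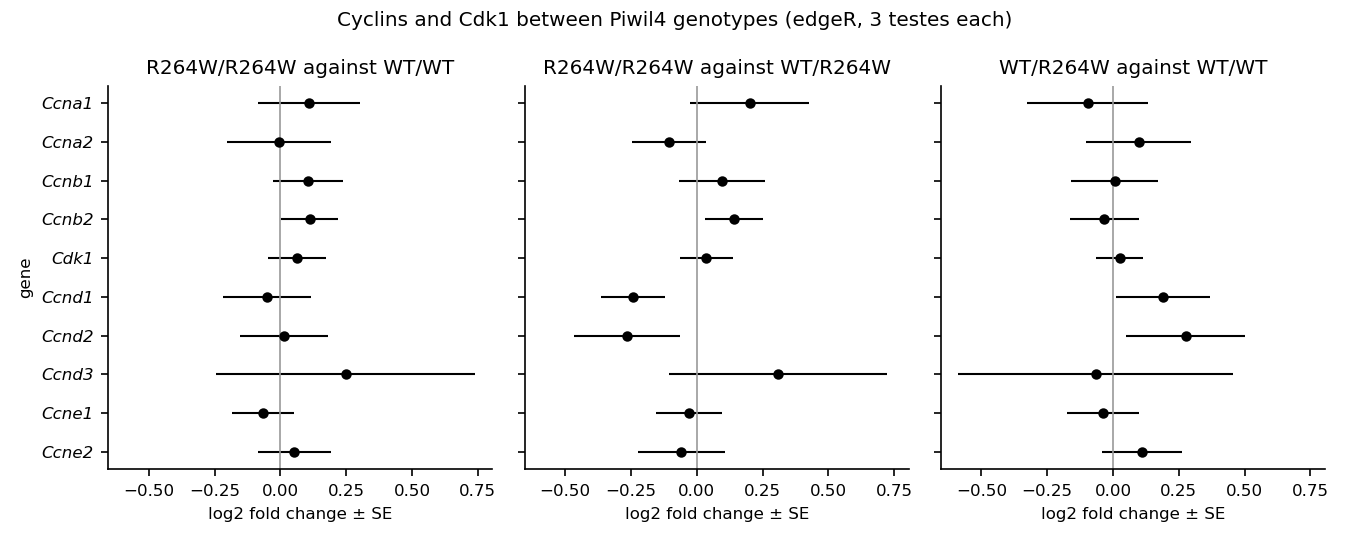
Log2 fold change of each member (horizontal axes) for the 3 genotype comparisons, with bars for 1 SE, from edgeR on 3 testes of each genotype. Every member lay between -0.26 and 0.31, and Ccnd3 had the widest bars.

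The remaining cell cycle genes were read from 6 lists. Between genotypes edgeR called none of their genes in any of the 3 comparisons, and 1, Cdkn1a, an inhibitor of Cdk2 and Cdk1 complexes, was at an unadjusted p under 0.05 (log2 fold change 0.40 ± 0.146 in R264W/R264W against WT/R264W, edgeR adjusted p = 0.948). With the spermatid score, 17.6% of all genes tested were higher and 8.53% lower, and the counts of each list stand against these shares. Among 19 other cyclins 1 was higher and 5 were lower, with a median slope of -0.04 against -0.01 over all genes. Ccnb3, a B-type cyclin of early meiotic prophase, had the steepest slope of -0.21 ± 0.0433 (adjusted p = 0.00364) and went from 5.65 FPKM at the lowest score to 2.49 FPKM at the highest. Ccng1, a target of p53, had a slope of -0.10 ± 0.0330 (adjusted p = 0.0447). Ccnk, the partner of the transcriptional kinases Cdk12 and Cdk13, was the 1 that was higher (0.10 ± 0.0195, adjusted p = 0.00195), at 112.9 to 157.8 FPKM.

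Among 11 kinases and Cks subunits 0 were higher and 2 lower (17.6% and 8.53% of all genes tested), with a median slope of -0.04. These were Cdk5 (-0.08 ± 0.0221, adjusted p = 0.0158) and Cks2, the Cks subunit needed in meiosis (-0.07 ± 0.0170, adjusted p = 0.0115), which fell from 184.3 FPKM at the lowest score to 125.1 at the highest. Of 12 kinase inhibitors and pocket proteins 1 was higher and 0 lower: Rbl2, the pocket protein of resting cells (0.14 ± 0.0248, adjusted p = 0.00114). Replication genes counted 0 higher and 2 lower of 16, with a median slope of -0.06. They were Mcm6, a subunit of the replicative helicase (-0.08 ± 0.0247, adjusted p = 0.0251), and Gmnn, which blocks a second round of licensing (-0.07 ± 0.0233, adjusted p = 0.0404).

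Of 15 G2/M activators 5 were higher and 2 lower, against 17.6% and 8.53% of all genes tested, with a median slope of -0.002. Foxm1, the transcription factor of late cell cycle genes, had a slope of 0.17 ± 0.0268 (adjusted p = 0.000469) and went from 28.1 FPKM at the lowest score to 53.7 at the highest. Plk1, the kinase that helps to switch on Cdk1, had a slope of 0.15 ± 0.0409 (adjusted p = 0.0155). Mad2l1, of the spindle checkpoint, was lower (-0.10 ± 0.0211, adjusted p = 0.00279), as was the spindle motor gene Kif11 (-0.05 ± 0.0169, adjusted p = 0.0438). Of 18 genes of cyclin destruction, 3 were higher and 4 lower, against the same shares of all genes. Skp2 and Fzr1, which pick out substrates for destruction, had slopes of 0.15 ± 0.0398 and 0.11 ± 0.0328, and Fbxo5, an inhibitor of the anaphase-promoting complex, and Cdc16, a subunit of it, had slopes of -0.13 ± 0.0381 and -0.10 ± 0.0223, with adjusted p between 0.00683 and 0.0265.

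**Figure D5:**
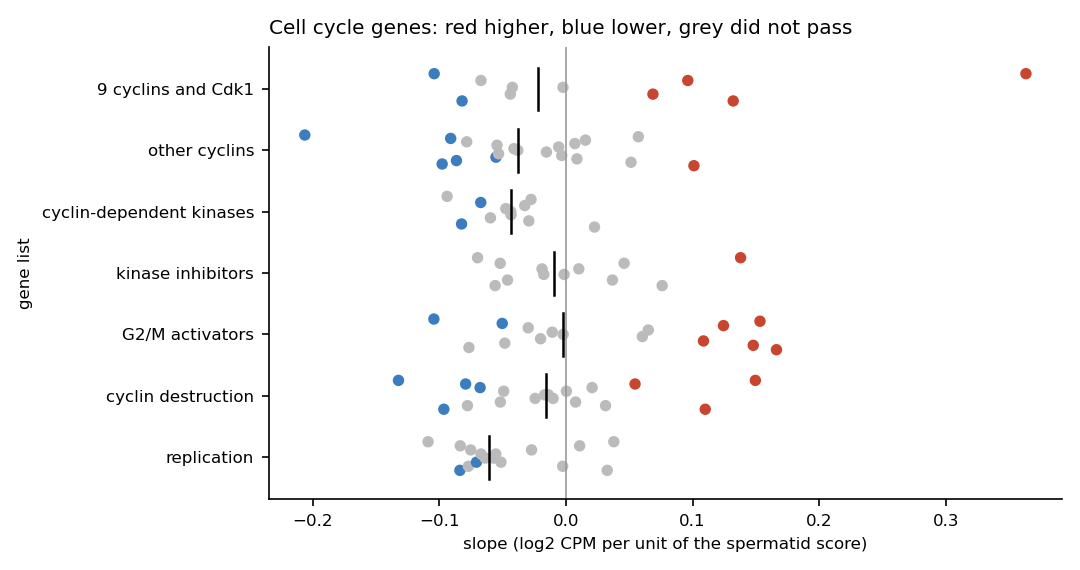
Slope on the spermatid score (horizontal axis, log2 CPM per unit of the score) of each tested gene in the set of 9 cyclins and Cdk1 and in 6 other cell cycle lists, with the median of a list as a black bar. Red points were higher and blue points lower at an adjusted p under 0.05, and Ccnd3, at 0.36, is the rightmost point.

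The genes most like single members were picked as the highest of many correlations. Over the 9 testes and 9902 genes with a mean of at least 10 CPM, log2 CPM was most like that of Ccna1 in Arc, Lrwd1 and Pias4 (Pearson r = 0.996, 0.994 and 0.994), most like that of Ccnb1 in Tmem39b, Spcs1 and Fem1al (0.986, 0.986 and 0.984), most like that of Ccnd2 in Utp11, Cse1l and Hspd1 (0.982, 0.973 and 0.965), and most like that of Cdk1 in Laptm4b, Ids and Tktl2 (0.956, 0.937 and 0.911). For Ccnd3, added after its values were seen, the first was Spaca4 (0.998), a gene of the acrosome and itself 1 of the 19 genes of the score. Among members, Ccna1 and Ccnb1 had r = 0.970, Ccnb1 and Ccnb2 0.952, Ccnd1 and Ccnd2 0.884, and Ccna1 and Ccna2 -0.812. These values are descriptions, and all genes share the depth and the spermatid RNA of a library. Picking the highest of 9902 correlations over 9 testes raises the values printed, by an amount that was not tested.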

How the data were processed

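RNA of 9 whole testes (3 of each Piwil4 genotype) was sequenced as paired-end reads. The authors filtered reads with fastp (version 0.18.0) and assembled them with StringTie (version 1.3.1). For every gene the table that the authors deposited gives, per testis, the FPKM and an unscaled estimated count (89.2% of counts are whole). The submitters' processing notes name the build mm39 and DESeq2. The aligner and the counting tool are not given in the sources used here, nor is use of strand, so reads of a gene and of an antisense partner cannot be told apart. Ccnb1, Ccnb2 and Ccnd3 have annotated pseudogenes, and reads shared with them were not examined. Estimated counts of Ccna2, Ccnd1 and Ccnd3 were fractional in every testis and those of Ccne2 in some. Those of the other members were whole, and what made counts fractional was not examined. Promoters are in GRCm38.p6 and were matched by symbol (6 of 10 members). Gene overlaps come from the GENCODE annotation of GRCm38.

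Estimated counts were rounded and fitted in R (version 4.3.3) with edgeR (version 4.0.16): filterByExpr, TMM scaling and the two-sided quasi-likelihood test, with Benjamini-Hochberg adjustment over all genes tested. Genotypes were compared on 6 testes at a time, and slopes on the spermatid score were fitted on 9 testes with genotype as a term. Each edgeR SE is the size of the log2 fold change or slope divided by the square root of the F statistic of its test. The score used a prior count of 1. It is RNA of the same libraries, so a slope says how a gene goes with spermatid RNA, not with age. Ratios were compared by exact permutation (scipy version 1.17.1). The fits were also run on counts simulated independently for each gene. That run cannot show how the tests do where many genes move together, as in these libraries. Replicates of a genotype differed well beyond sampling noise (chi-square per degree of freedom of 7.3 or more).

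All 10 members were named. Other genes were named by rule: for Ccna1, Ccnb1, Ccnd2 and Cdk1 the 3 genes with the highest Pearson r, and per cell cycle list the 2 steepest called slopes each way. Cdkn1a, and the neighbours Bysl, Ints8 and Exosc9, were named after their values were seen, and the motif search in Ccne1 and Ccnd3 was added then. Members, lists and score were chosen with earlier results of these data known. Of the list genes, Cdk3 and Lin54 were not in the table used here. Alternatives were DESeq2 (version 1.42.0) and its size factors, scaling to Sertoli genes, no filter, at least 10 counts in every library, limma (version 3.58.1) with pseudocounts of 1 or 0.1 added to FPKM before log2, the replicate number as a block, all 9 testes in one fit, the score as a covariate, no genotype term, a pachytene score, and leaving out testes.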

Additional observations from a re-analysis of the deposited data

How the results depend on the processing

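Between genotypes no alternative called a member. DESeq2 called 1 gene in R264W/R264W against WT/WT, 5 in R264W/R264W against WT/R264W and 0 in WT/R264W against WT/WT, with 154, 290 and 111 genes at an unadjusted p under 0.05. Member calls on the spermatid score numbered 6, but 1 (1 higher, 0 lower) without the 2 testes farthest from the median score, and 2 to 8 (1 to 4 higher, 0 to 4 lower) on leaving out 1 testis, the 8 without WT/R264W replicate 1. There were 0 lower members with libraries scaled to Sertoli genes. With that scaling the median slope of all genes was 0.038, against -0.012 with TMM. Of 15771 genes 49 were then lower, against 1345 with TMM. The Sertoli sum itself was 2459 CPM at the lowest score and 1761 at the highest. The cause of the differences between settings was not tested. Of 200 repeats of the 10 member slopes, 156 kept direction and side of the threshold, 27 lost the call, 5 gained it and 12 changed sign, the last only for Ccne1, Ccnd2 and Cdk1. The Ccne1 slope was 0.0017 with DESeq2, 0.0024 with its size factors, 0.049 with Sertoli scaling, 0.0016 with at least 10 counts, 0.0051 on the pachytene score and 0.011 without the 2 farthest testes, and -0.011 to 0.012 on leaving out 1 testis. With Sertoli scaling the slope was 0.00019 for Ccnd2 and 0.0085 for Cdk1.

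Fold changes near 0 changed sign freely (70 of 480 repeats, none called). For R264W/R264W against WT/WT, Ccna2 was 0.0063 with DESeq2 and with its size factors, 0.022 with Sertoli scaling, 0.0018 with at least 10 counts, 0.012 and 0.016 with limma on log2(FPKM + 1) and log2(FPKM + 0.1), and 0.097 with the score as a covariate, which gave 0.026 for Ccnd1. Ccnd2 was -0.076 and -0.093 with limma. Leaving out 1 testis gave -0.069 to 0.23 for Ccna1, -0.18 to 0.14 for Ccna2, -0.0077 to 0.20 for Ccnb1, -0.19 to 0.10 for Ccnd1, -0.11 to 0.15 for Ccnd2, -0.12 to 0.88 for Ccnd3 and -0.018 to 0.17 for Ccne2. It gave -0.056 to 0.54 for Ccnd3 in R264W/R264W against WT/R264W and -0.29 to 0.088 for Ccna1 in WT/R264W against WT/WT. The log2 ratio differences then ran from -0.18 to 0.42 (Ccna1 to Ccna2), -0.092 to 0.034 (Ccnb1 to Ccnb2), -0.23 to 0.017 (Ccne1 to Ccne2), -0.11 to 0.0054 (Ccnd2 to Ccnd1) and -0.10 to 1.003 (Ccnd3 to Ccnd2), and Ccnd2 to Ccnd1 was 0.057 from counts.

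Replicate numbers are shared between genotypes, but no label says that they mark a litter or a day. Same-numbered testes deviated together in some pairs and apart in others (correlations of -0.808 to 0.858), so the numbers were not taken as a pairing. With the replicate number as a block, 4 members were higher and 0 lower with the score (edgeR adjusted p = 0.0695 for Ccna2 and 0.0605 for Ccne2), the Ccne1 slope was 0.0087, and the Ccna2 fold change for R264W/R264W against WT/WT was 0.014.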
